A study of Rattus norvegicus with 12 samples.

Results

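N-methyl-D-aspartate (NMDA) receptor subunit transcripts were followed on 12 expression arrays of rat striatum. The members were the genes Grin1, Grin2a, Grin2b, Grin2c, Grin2d and Grin3a, and every probe whose RefSeq accession leads to one of these symbols was taken. This found 6 probes, printed as 10 spots, among the 30367 distinct probes of the array, which carry 14629 gene symbols in all. Grin1 had 2 probes and Grin2a, Grin2b, Grin2c and Grin2d had 1 each, so 5 of the 6 genes were measured. For Grin3a no probe was matched, and it is not analysed here. All 6 probes were well above background on enough arrays to be tested.

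NMDA receptors with GluN2 subunits are glutamate-gated cation channels. They open only when glutamate and a co-agonist, glycine or D-serine, are bound and the membrane is depolarised enough to expel magnesium from the pore. Each NMDA receptor combines obligatory GluN1 subunits, encoded by Grin1, with GluN2 subunits, encoded by Grin2a to Grin2d, or GluN3 subunits. The GluN2 or GluN3 subunits set opening kinetics, magnesium block and calcium entry. In the striatum NMDA receptors receive the cortical and thalamic glutamate input of the spiny projection neurons. GluN2A and GluN2B receptors there have long been studied in dopamine loss and in the involuntary movements that L-DOPA can cause.

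The arrays carried RNA of male Wistar rats whose left medial forebrain bundle, the tract of the dopamine fibres, had been injected with the toxin 6-hydroxydopamine. Rats of every group, the saline animals included, had turned at least 7 times per minute after methamphetamine at 3 mg/kg, and daily treatment began 7 days later and lasted 7 days. The 4 groups, of 3 arrays each, were lesioned striatum given both L-DOPA (100 mg/kg) and zonisamide (50 mg/kg), lesioned striatum given L-DOPA alone at the same dose, and the lesioned and non-lesioned striatum of saline-treated rats. L-DOPA, the dopamine precursor, followed the peripheral decarboxylase inhibitor benserazide by 30 min, and zonisamide, an antiepileptic drug also given in Parkinson's disease, followed L-DOPA by 30 min. The non-lesioned striatum thus came from toxin-injected, methamphetamine-challenged rats and not from intact ones, and whether it shares animals with the lesioned saline arrays is not stated.

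Values are log2 signals relative to the 75th percentile of the same array, so that 0 is the signal that 75% of spots stayed below. A level compares arrays for 1 probe and says nothing of 1 gene against another, because probes differ in how brightly they label. The 75th percentile lay between 793 and 1737 intensity units, and 67.8% to 74.0% of probes were well above background. The arrays came from 5 slides. Replicate 1 of all groups shared a slide, as did replicate 2 of the lesioned groups, and replicate 3 of both drug groups shared one with replicate 2 of non-lesioned saline, while replicate 3 of lesioned saline and replicate 3 of non-lesioned saline each lay alone.

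Of 12 spiny neuron markers 11 were tested, among them Ppp1r1b at a mean of 5.22 and Drd2 at 4.58. Of 10 cortical excitatory neuron markers 5 were tested, and their signals, summed on the linear scale in multiples of the 75th percentile, were 1.02 to 1.196 with L-DOPA and zonisamide, 0.914 to 1.21 with L-DOPA, 0.719 to 1.03 in lesioned saline and 0.505 to 1.16 in non-lesioned saline. Slc17a7 had a probe on the array but was not among those tested. Choroid plexus markers varied widely within groups, with sums of 9.05 to 114 with L-DOPA and zonisamide, 23.1 to 179.5 with L-DOPA, 3.61 to 23.8 in lesioned saline and 9.25 to 150.3 in non-lesioned saline. Spiny neuron marker sums were 158 to 239 with L-DOPA and zonisamide, 169 to 194 with L-DOPA, 207 to 219.6 in lesioned saline and 170.0 to 245 in non-lesioned saline. Among the marker genes the spiny neuron phosphodiesterase Pde1b passed with limma, lower with L-DOPA than in non-lesioned saline (-1.26, adjusted p = 0.0446).

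No NMDA receptor subunit probe passed the test in any of the 6 comparisons between groups (limma, adjusted p under 0.05 over the 21469 probes tested). The 4 departures with an unadjusted p under 0.05 were a higher Grin2a signal after L-DOPA than after saline on the lesioned side, a lower Grin2a signal when zonisamide was added to L-DOPA, and a higher signal of 1 of the Grin1 probes with L-DOPA and zonisamide than with L-DOPA alone or on the non-lesioned side. The group means of Grin2b, and those of Grin2c, stayed within 0.18 log2 units, and Grin2d varied so much between arrays of a group that differences of 1.54 log2 units lay inside its error.

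Zonisamide added to L-DOPA left 0 of 6 probes past the threshold, where 0.503% of all probes passed. At an unadjusted p under 0.05 there were 2 of 6, against 12.3% of all probes, and these 2 were also the probes whose groups did not overlap, against 17.4% of all. L-DOPA against lesioned saline likewise gave 0 of 6, where 0.429% of all probes passed. Here 1 of 6 had an unadjusted p under 0.05, against 11.1% of all, and it was also the one without overlap, against 22.2% of all. The 2 comparisons share the L-DOPA arrays, so their values are not independent.

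The lesioned side against the non-lesioned side after saline gave 0 of 6 called, 0 of 6 at an unadjusted p under 0.05 and 0 of 6 without overlap. Over all probes the same shares were 0%, 8.26% and 16.7%. L-DOPA with zonisamide against lesioned saline gave 0 of 6 on all 3 measures, where the shares over all probes were 0%, 7.2% and 17.9%. L-DOPA against non-lesioned saline gave 0 of 6 on all 3, where 1.14% of all probes passed, 14% had an unadjusted p under 0.05 and 18.7% did not overlap. L-DOPA with zonisamide against non-lesioned saline gave 0 of 6 called and 1 of 6 both at an unadjusted p under 0.05 and without overlap, against 0%, 4.35% and 7.27% of all probes.

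**Figure D1:**
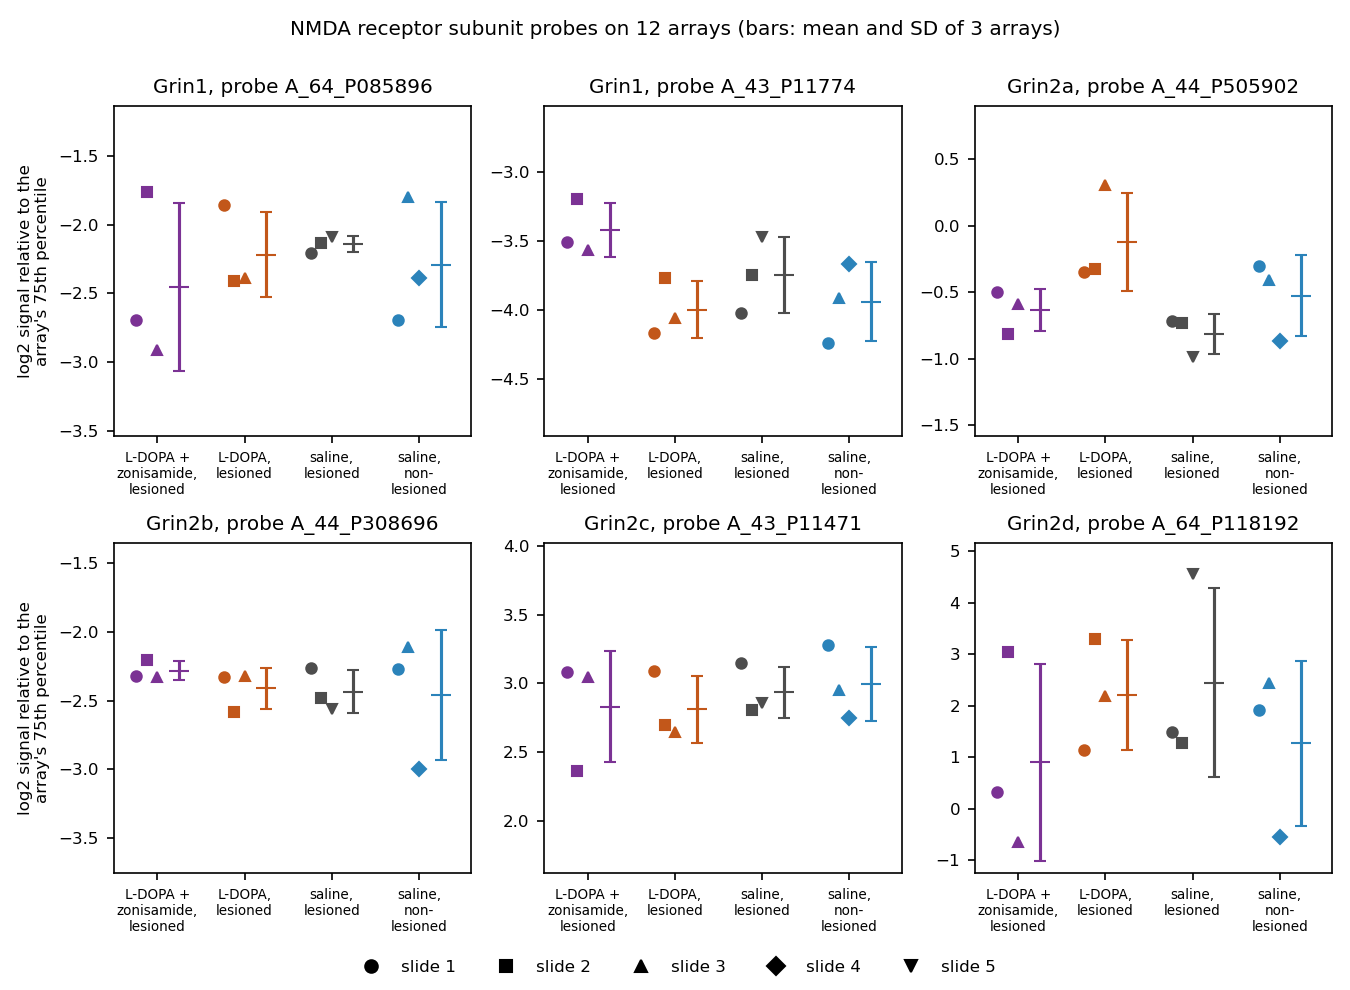
Signal of the 6 NMDA receptor subunit probes on each array, as log2 relative to the array's 75th percentile (vertical axis), in the 4 groups (horizontal axis). Marker shapes give the slide and bars the mean and SD of 3 arrays. Grin2a sits between -0.35 and 0.30 with L-DOPA, above all 3 lesioned saline arrays, and the Grin2d points with zonisamide spread from -0.65 to 3.04.

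Grin1 encodes the GluN1 subunit that every NMDA receptor contains and that binds the glycine-site co-agonist. Both of its probes carry the accession of the same transcript, NM_017010. Probe A_43_P11774, printed as 1 spot, stood at -3.50, -3.19 and -3.56 with L-DOPA and zonisamide and at -4.17, -3.77 and -4.05 with L-DOPA. In lesioned saline it stood at -4.02, -3.75 and -3.47, and in non-lesioned saline at -4.24, -3.91 and -3.67. All 3 arrays with zonisamide lay above all 3 with L-DOPA alone and above all 3 of the non-lesioned side, and they overlapped with lesioned saline at its replicate 3.

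The A_43_P11774 signal was thus higher by 0.58 ± 0.21 log2 units with zonisamide than with L-DOPA alone (moderated SE, n = 3 each, 95% interval 0.12 to 1.04), which did not pass (unadjusted p = 0.0192, adjusted p = 0.284, limma). Within the 3 slides that held both drug groups the differences were 0.66, 0.57 and 0.49. Against non-lesioned saline the difference was 0.52 ± 0.21 (unadjusted p = 0.0311, adjusted p = 0.9996), and against lesioned saline 0.32 ± 0.21 (adjusted p = 0.733). L-DOPA alone differed from lesioned saline by -0.25 ± 0.21, and the lesion by 0.19 ± 0.21. In order of group mean the probe ran from L-DOPA with zonisamide (-3.42) over lesioned saline (-3.74) and non-lesioned saline (-3.94) to L-DOPA (-4.00), and no neighbours in that order differed beyond their interval.

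The other Grin1 probe did not repeat this order. A_64_P085896, the mean of 2 spots, stood at -2.69, -1.76 and -2.91 with L-DOPA and zonisamide, at -1.86, -2.41 and -2.39 with L-DOPA, at -2.20, -2.13 and -2.09 in lesioned saline and at -2.69, -1.80 and -2.39 in non-lesioned saline. The groups overlapped in every comparison. Its difference with zonisamide added was -0.24 ± 0.32, and within slides it was -0.83, 0.64 and -0.52. The 95% interval of -0.94 to 0.47 overlapped the 0.12 to 1.04 of the other probe, and the difference between the probes was not tested. Over the 12 arrays the 2 Grin1 probes correlated at r = 0.06 (rho = 0.10), as a description over arrays that share groups and slides.

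Spot by spot, the first A_64_P085896 spot read well below the second on 2 arrays with zonisamide. On replicate 3 the first spot read -4.15 and was not well above background, while the second read -1.67. On replicate 1 the spots read -3.34 and -2.04. On replicate 1 of non-lesioned saline 1 of the 2 spots was marked as an outlier in the file and left out, so that value is a single spot.

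The promoter of Grin1 is shown because Grin1 is the obligatory subunit and because cAMP-response and AP-1 sites are the sequences that dopamine-driven transcription factors bind. It is the 250 bases before the RefSeq transcription start on rat assembly GRCr8, chr3:28528755-28529004, minus strand, read in the direction of the gene. Capitals mark TGACG, the first letters of the cAMP response element, on the strand of the gene and its complement CGTCA on the other strand.
Grin1: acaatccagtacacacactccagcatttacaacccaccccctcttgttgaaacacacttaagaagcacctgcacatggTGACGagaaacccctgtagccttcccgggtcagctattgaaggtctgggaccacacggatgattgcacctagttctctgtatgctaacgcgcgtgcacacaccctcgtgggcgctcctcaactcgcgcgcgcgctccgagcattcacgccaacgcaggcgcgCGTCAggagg
The 2 matches lie 1 on each strand, and the nearer begins 10 bases before the start. The full element TGACGTCA, the AP-1 site TGANTCA and the GC box GGGCGG were not found on either strand of this window. TGACG, which is part of TGACGTCA, occurs in 18.2% of 33469 RefSeq promoter windows of this length, TGACGTCA in 1.59%, TGANTCA in 6.34% and GGGCGG in 30.5%. The windows of Grin2c, Grin2d and Grin3a held none of the 4 motifs, and Grin2a and Grin2b had no entry. A match of letters describes the window and says nothing of binding.

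Grin2a encodes GluN2A, the subunit that becomes prominent at mature synapses and gives fast-closing channels. Its probe A_44_P505902 stood at -0.50, -0.81 and -0.59 with L-DOPA and zonisamide and at -0.35, -0.33 and 0.30 with L-DOPA. It stood at -0.72, -0.73 and -0.99 in lesioned saline and at -0.30, -0.41 and -0.87 in non-lesioned saline. The 3 L-DOPA arrays were above all 3 of lesioned saline and all 3 with zonisamide, and overlapped with the non-lesioned side, and replicate 3 of L-DOPA was the highest of all 12.

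After L-DOPA the Grin2a signal was higher than in lesioned saline by 0.69 ± 0.22 log2 units, or 1.61-fold with a 95% interval of 1.15 to 2.26, which did not pass (unadjusted p = 0.0102, adjusted p = 0.269, limma). In the 2 slides that held both groups the differences were 0.37 and 0.41. Without replicate 3 of L-DOPA, whose slide held no lesioned saline array, the difference was 0.48 (unadjusted p = 0.0436). A smaller p was reached by 3.78% of all probes in this comparison.

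Adding zonisamide to L-DOPA gave a Grin2a difference of -0.51 ± 0.22 (95% interval -0.998 to -0.02, unadjusted p = 0.0417, adjusted p = 0.379). Within slides it was -0.15, -0.49 and -0.89, negative in all 3 and unequal in size. Without replicate 3 of L-DOPA it was -0.30 (unadjusted p = 0.178), so its size rested largely on that array. Replicate 3 of L-DOPA had a replicate-spot spread of 24.2%. Without the 5 arrays whose spread exceeded 20%, the difference was -0.32 (unadjusted p = 0.129, adjusted p = 0.588, limma). With the replicate number as a block over all 12 arrays, the difference had an unadjusted p = 0.0655 (adjusted p = 0.455, limma). Under this block 1 of 6 probes, the Grin1 probe A_43_P11774, stayed under 0.05 in this comparison. Equal numbers share a slide between the 2 drug groups but not throughout the saline groups. With slide itself as a fixed or random block the unadjusted p was 0.0357 and 0.0327 (limma). With zonisamide the signal differed from lesioned saline by only 0.18 ± 0.22 (interval -0.31 to 0.67) and from non-lesioned saline by -0.11 ± 0.22.

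The lesion itself was accompanied by a Grin2a difference of -0.29 ± 0.22 (interval -0.77 to 0.20, adjusted p = 0.725), with -0.42 within the slide that held both groups. In order of group mean Grin2a ran from L-DOPA (-0.12) over non-lesioned saline (-0.53) and L-DOPA with zonisamide (-0.63) to lesioned saline (-0.81). Neighbours in this order did not differ beyond their intervals, the nearest to doing so being L-DOPA against non-lesioned saline at 0.40 ± 0.22 (unadjusted p = 0.0959).

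In bulk tissue fewer cells of a type and less RNA per cell cannot be told apart, and some marker sums differed on the L-DOPA arrays on which Grin2a was high. The summed signal of 10 interneuron markers was 24.8 to 34.2 with zonisamide added, 20.5 to 21.7 with L-DOPA, 26.5 to 28.0 in lesioned saline and 23.2 to 35.3 in non-lesioned saline. That of 10 astrocyte markers was 119.9 to 152 with zonisamide, 111 to 133 with L-DOPA, 141 to 179 in lesioned saline and 134 to 174 in non-lesioned saline. Both sums were lower on all 3 L-DOPA arrays than on all 3 of lesioned saline. So was the spiny neuron sum, at 169 to 194 against 207 to 219.6. The oligodendrocyte sum overlapped, at 99.0 to 142 against 109 to 230, as did the cortical and choroid plexus sums. Of all probes, 22.2% had groups without overlap in this comparison. The astrocyte sum did not stand for its list, since its member Aldoc differed by -0.70 ± 0.21 with L-DOPA against lesioned saline (adjusted p = 0.226) while 6 of the 10 markers were higher and 4 lower, with a median of 0.11. Of the interneuron markers 4 were higher and 6 lower, with a median of -0.27. Of the 11 spiny neuron markers tested 3 were higher and 8 lower, with a median of -0.31. The part of these cell types in the Grin2a values was not tested.

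By group mean, but not array by array, choroid plexus markers differed in the same directions as Grin2a in the comparisons given here. All 10 tested were higher with L-DOPA than in lesioned saline (median 2.89), all 10 were lower with zonisamide added to L-DOPA (median -1.56) and all 10 were lower in lesioned than in non-lesioned saline (median -1.70), beside medians over all probes of -0.03, -0.03 and 0.04. None of the 10 passed with limma in these comparisons, and 1, Ttr, had an unadjusted p under 0.05, with L-DOPA against lesioned saline. For replicates 1 to 3 the choroid plexus sums were 22.7, 9.05 and 114 with zonisamide, beside Grin2a at -0.50, -0.81 and -0.59. They were 23.1, 179.5 and 127.9 with L-DOPA, beside -0.35, -0.33 and 0.30. In lesioned saline they were 3.61, 23.8 and 13.2, beside -0.72, -0.73 and -0.99. In non-lesioned saline they were 9.25, 10.4 and 150.3, beside -0.30, -0.41 and -0.87. With the choroid plexus transcript Ttr as a covariate the Grin2a difference between L-DOPA and lesioned saline was 0.77 (unadjusted p = 0.0240, adjusted p = 0.719, limma). With zonisamide added to L-DOPA the Grin2a difference under this covariate was -0.54 (unadjusted p = 0.0480, adjusted p = 0.426, limma). The part of choroid plexus tissue in the Grin2a values was not tested.

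**Figure D2:**
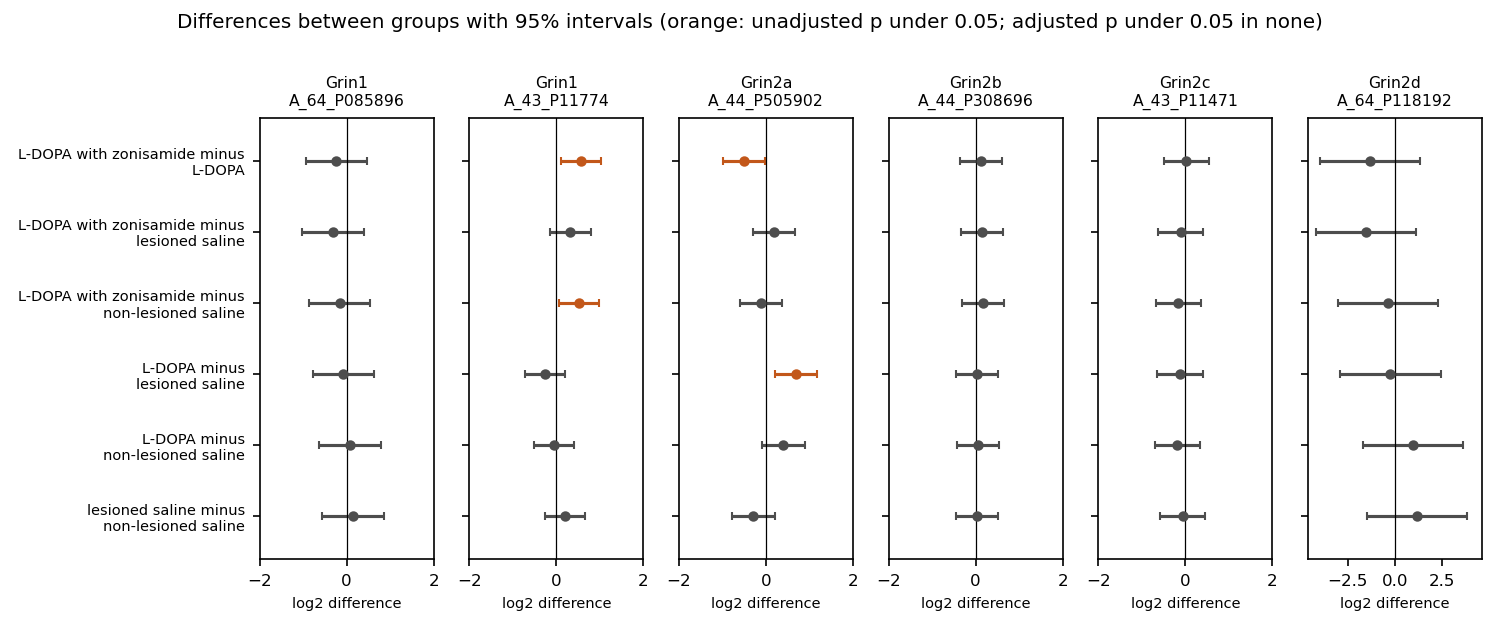
Differences between group means of each NMDA receptor subunit probe (horizontal axis, log2) in the 6 comparisons (rows), with 95% intervals from limma; the scale of Grin2d is wider. Orange marks the 4 intervals that exclude 0 at an unadjusted p under 0.05, 2 of Grin1 A_43_P11774 with zonisamide and 2 of Grin2a that use the L-DOPA arrays.

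Grin2b encodes GluN2B, the subunit with slow-closing channels and a long cytoplasmic tail that binds CaMKII. Its probe A_44_P308696 stood at -2.32, -2.20 and -2.33 with L-DOPA and zonisamide, at -2.33, -2.58 and -2.32 with L-DOPA, at -2.26, -2.48 and -2.56 in lesioned saline and at -2.27, -2.11 and -3.00 in non-lesioned saline. All groups overlapped, and the value of non-lesioned replicate 3 was the lowest of the 12. No difference exceeded 0.18 in size, and the interval of zonisamide against L-DOPA was -0.36 to 0.61, that of L-DOPA against lesioned saline -0.46 to 0.51 and that of the lesion -0.46 to 0.51. Changes of up to about these bounds are therefore not excluded by 3 arrays per group.

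The balance of GluN2A and GluN2B is often discussed for striatal receptors, so the difference between the Grin2a and Grin2b signals was taken on each array. It has no absolute meaning across probes and serves only to compare arrays. It was 1.82, 1.39 and 1.74 with L-DOPA and zonisamide, 1.98, 2.26 and 2.63 with L-DOPA, 1.54, 1.75 and 1.58 in lesioned saline and 1.97, 1.70 and 2.12 in non-lesioned saline. The 3 L-DOPA arrays were above the arrays of both other lesioned groups and overlapped with the non-lesioned side.

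Its mean was 1.65 ± 0.23 with L-DOPA and zonisamide, 2.29 ± 0.33 with L-DOPA, 1.62 ± 0.11 in lesioned saline and 1.93 ± 0.21 in non-lesioned saline (SD, n = 3 each). The difference was -0.64 for zonisamide added to L-DOPA and 0.66 for L-DOPA against lesioned saline, each with an exact two-sided permutation p = 0.1, the smallest that 3 arrays against 3 can give (0.3 adjusted over the 6 comparisons). The lesion gave -0.31 (exact permutation p = 0.2). L-DOPA with zonisamide differed from lesioned saline by 0.03 (exact permutation p = 0.9). A quantity that cannot reach the 0.05 threshold in this design is described and not called.

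**Figure D3:**
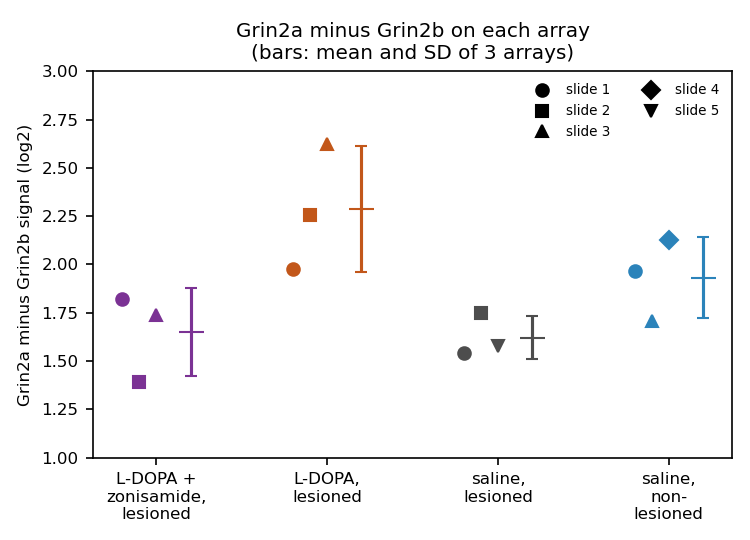
Grin2a minus Grin2b log2 signal on each array (vertical axis) in the 4 groups (horizontal axis), with marker shapes for the slide and bars for the mean and SD of 3 arrays. The L-DOPA arrays lie at 1.98 to 2.63, above the 1.39 to 1.82 with zonisamide added and the 1.54 to 1.75 of lesioned saline.

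Grin2c encodes GluN2C, a subunit known from cerebellar granule cells and astrocytes whose receptors are less sensitive to magnesium. Its probe A_43_P11471 stood at 3.08, 2.37 and 3.05 with L-DOPA and zonisamide, at 3.09, 2.70 and 2.65 with L-DOPA, at 3.15, 2.80 and 2.85 in lesioned saline and at 3.28, 2.95 and 2.75 in non-lesioned saline. The groups overlapped in every comparison, and no difference exceeded 0.18 in size. Zonisamide against L-DOPA gave 0.02 with an interval of -0.50 to 0.54, and L-DOPA against lesioned saline -0.12 with an interval of -0.64 to 0.40.

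Grin2d encodes GluN2D, a subunit of interneurons and of early development whose channels close very slowly. Its probe A_64_P118192 stood at 0.33, 3.04 and -0.65 with L-DOPA and zonisamide, at 1.15, 3.29 and 2.19 with L-DOPA, at 1.50, 1.28 and 4.57 in lesioned saline and at 1.92, 2.45 and -0.54 in non-lesioned saline. The groups overlapped throughout, with the lowest value in a zonisamide array and the highest in lesioned saline. The differences ran from -1.54 ± 1.19 for L-DOPA with zonisamide against lesioned saline to 1.17 ± 1.19 for the lesion, none with an unadjusted p under 0.05. Within slides zonisamide against L-DOPA gave -0.83, -0.25 and -2.84.

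The spread of Grin2d within groups was 1.64 log2 units (pooled SD), larger than that of nearly all probes: 1.24% of the tested probes had a larger one and the median was 0.336. Its 2 spots on the same array also differed, by 0.18 to 3.99 log2 units with a median of 0.94, while the median of such differences over 10828 probes printed as 2 spots was 0.198. Only 4.07% of those probes had a larger median. On replicate 1 of L-DOPA the spots read -0.84 and 3.15.

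The spots of the other members lay closer. The median difference between spots was 0.17 for Grin2a and 0.23 for Grin2c, with maxima of 0.93 and 0.92, and 0.34 for the Grin1 probe A_64_P085896, with a maximum of 2.49. The within-group SD was 0.245 for Grin1 A_43_P11774, 0.263 for Grin2a, 0.262 for Grin2b and 0.287 for Grin2c, each below the 0.336 median of all probes, and 0.411 for Grin1 A_64_P085896. The largest Grin2a spot difference, with readings of -1.05 and -0.13, was on replicate 3 of L-DOPA with zonisamide, the array with the widest replicate-spot spread of all (27.8%).

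**Figure D4:**
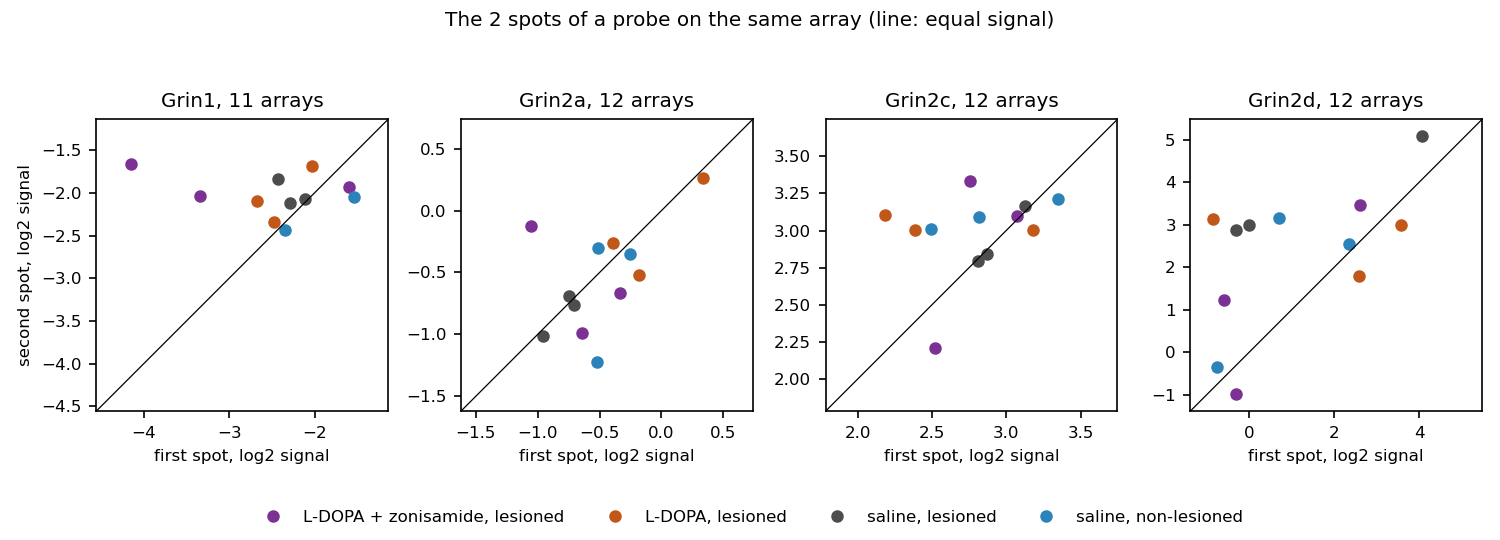
Log2 signal of the second spot (vertical axis) against the first spot (horizontal axis) of the 4 member probes printed as 2 spots, 1 point per array coloured by group, with the line of equal signal. Grin2a points stay near the line on most arrays, while Grin2d spots differ by up to 3.99.

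Among the members no pair was tightly related over the 12 arrays. The largest r was 0.51 between Grin2d and Grin1 and the most negative -0.41 between Grin2c and Grin1, each gene standing with its brighter probe, and Grin2a with Grin2b gave 0.35. These are descriptions over 12 arrays that share groups and slides. The genes with the most similar profile, among 11109 others with 1 probe each, were Kcnj14 (r = 0.94), Timp4 (0.90) and Lamb1 (0.89) for Grin2a, Eid1 (0.93), Gabrb1 (0.92) and Ndufa12 (0.92) for Grin2b and Ptdss2 (0.90), Cox18 (0.88) and Plekha1 (0.88) for Grin2c. For Grin2d they were Etv3 (0.95), Fgd3 (0.95) and Cpg1 (0.94), and for Grin1 Ciao2a (0.84), Kdelr2 (0.82) and Tbc1d24 (0.81). The 95th percentile of r over all compared genes lay between 0.47 and 0.65 for the members. The named genes were picked as the highest of 11109, so they exceed that percentile by selection, and whether their r is unusual was not tested.

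Genes that work with the receptor were followed as 7 lists, chosen with earlier results of these data known, and no gene of any list passed in any of the 6 comparisons with limma. Over all probes the median was -0.03 with zonisamide added to L-DOPA, -0.03 with L-DOPA against lesioned saline and 0.04 after the lesion. The relatives of the receptor, other ionotropic glutamate receptor genes and Grin3b, had 8 of 9 genes tested. With zonisamide added to L-DOPA 2 were higher and 6 lower, with a median of -0.14 beside -0.03 over all probes, and with L-DOPA against lesioned saline 4 were higher and 4 lower, with a median of -0.01 beside -0.03. Grik4, a high-affinity kainate receptor subunit, stood at -3.56, -3.83 and -3.22 with zonisamide, at -2.89, -2.71 and -2.27 with L-DOPA, at -3.48, -3.70 and -3.98 in lesioned saline and at -3.38, -3.55 and -3.68 in non-lesioned saline. The L-DOPA arrays were above all others. The difference was 1.10 ± 0.22 for L-DOPA against lesioned saline (adjusted p = 0.0773) and -0.91 ± 0.22 for zonisamide against L-DOPA (adjusted p = 0.112).

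Grin3b, which encodes the GluN3B subunit, was at or near background. It was not well above background on any of the 3 lesioned saline arrays and was so on all 3 of non-lesioned saline. The mean of these lesioned saline arrays was at least 3.68-fold lower, and the difference did not pass (adjusted p = 0.400, limma). That bound sets each dim value at the lowest signal which its array marked as well above background. It leaves out the spread between arrays and is no lower limit for the difference between the groups.

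Scaffold and trafficking genes, which anchor the receptor at the postsynaptic density, had 19 of 22 tested. With zonisamide 11 were higher and 8 lower (median 0.02), and with L-DOPA 10 were higher and 9 lower (median 0.00). The smallest p with L-DOPA was that of Dlgap4, a guanylate-kinase-associated scaffold protein, at 0.73 ± 0.29 (adjusted p = 0.374). For Dlg4, which encodes the scaffold PSD-95, the difference with zonisamide was -0.81 ± 0.52 (adjusted p = 0.586).

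Kinases and phosphatases that act on the receptor had 21 of 23 tested. With zonisamide against L-DOPA 16 were higher and 5 lower (median 0.18 beside -0.03 over all probes), and 4 of the 21 had an unadjusted p under 0.05, against 12.3% of all probes. Ptk2b, a calcium-activated tyrosine kinase, differed by 0.58 ± 0.19 (adjusted p = 0.248), and its groups did not overlap.

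With L-DOPA against lesioned saline 7 of these kinase and phosphatase genes were higher and 14 lower (median -0.07), and 3 of the 21 had an unadjusted p under 0.05, against 11.1% of all probes. Camk2d, the delta subunit of CaMKII, stood at -2.31, -1.68 and -1.40 with L-DOPA against -2.81, -3.35 and -3.51 in lesioned saline, a difference of 1.42 ± 0.37 (adjusted p = 0.157). Dapk1, a death-associated kinase that binds the GluN2B tail, stood at 0.46, 0.44 and 0.14 against 1.46, 1.21 and 1.32, a difference of -0.99 ± 0.26 (adjusted p = 0.158). Neither pair of groups overlapped. After the lesion 4 genes of the list were higher and 17 lower, with a median of -0.13 beside 0.04 over all probes.

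Genes that supply the co-agonists glycine and D-serine had 14 of 17 tested. With zonisamide against L-DOPA 5 were higher and 9 lower (median -0.18 beside -0.03 over all probes), and 4 of the 14 had an unadjusted p under 0.05, against 12.3% of all probes. With L-DOPA against lesioned saline 9 were higher and 5 lower (median 0.20 beside -0.03), and 5 of the 14 had one, against 11.1%. Slc7a10, a neuronal transporter of glycine and D-serine, stood at 0.36, 0.21 and 0.00 with zonisamide, at 0.77, 1.73 and 1.60 with L-DOPA, at 0.64, 0.52 and 1.03 in lesioned saline and at 0.69, 0.61 and 0.61 in non-lesioned saline.

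The zonisamide arrays were below all others for Slc7a10, and its difference from L-DOPA of -1.18 ± 0.25 had the smallest p of any pathway gene in that comparison (unadjusted p = 0.000725, adjusted p = 0.0740). Shmt2, the mitochondrial enzyme that converts serine and glycine into each other, differed by -0.68 ± 0.18 with zonisamide (adjusted p = 0.145) and by 0.58 ± 0.18 with L-DOPA against lesioned saline (adjusted p = 0.261). Slc1a4, a serine and alanine exchanger, differed by 0.78 ± 0.23 with L-DOPA (adjusted p = 0.233).

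Genes of glutamate supply and uptake had 11 of 12 tested, of which 8 were higher and 3 lower with zonisamide (median 0.15) and 5 higher and 6 lower with L-DOPA (median -0.03). The smallest p with L-DOPA belonged to the glutamine transporter Slc38a3 at 0.82 ± 0.33 (adjusted p = 0.383). Kynurenine pathway genes, whose product kynurenic acid blocks the co-agonist site, had 7 of 13 tested. With zonisamide 6 were higher and 1 lower (median 0.11), and with L-DOPA all 7 tested were lower (median -0.19).

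Kyat1, an aminotransferase that makes kynurenic acid, stood at -1.39, -1.24 and -1.37 with zonisamide, at -1.78, -1.73 and -1.76 with L-DOPA, at -1.44, -1.66 and -1.64 in lesioned saline and at -1.35, -1.31 and -1.37 in non-lesioned saline. The L-DOPA arrays were below all others, and zonisamide against L-DOPA gave 0.42 ± 0.12 (adjusted p = 0.174). Calcium-dependent partners that act downstream of the open channel had all 16 tested. With zonisamide 6 were higher and 10 lower (median -0.05), with L-DOPA 4 were higher and 12 lower (median -0.11), and after the lesion 13 were higher and 3 lower (median 0.18). Camkk1, which phosphorylates other CaM kinases, differed by 0.48 ± 0.17 with zonisamide against L-DOPA (adjusted p = 0.284).

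**Figure D5:**
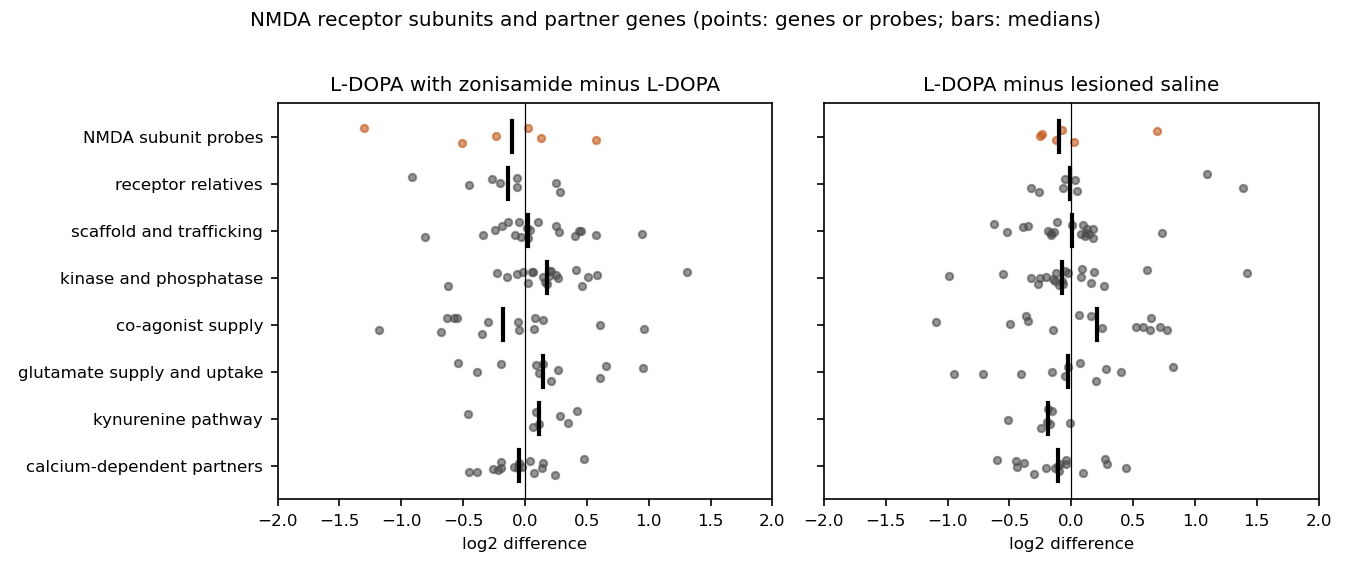
Log2 differences (horizontal axis) of the 6 NMDA receptor subunit probes and of the tested genes of 7 partner lists (rows) for zonisamide added to L-DOPA (left) and for L-DOPA against lesioned saline (right). Each point is a probe or gene and bars are medians, which lie between -0.18 and 0.18 on the left and between -0.19 and 0.20 on the right; no point passed at an adjusted p under 0.05.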

How the data were processed

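Striatal RNA of 12 samples was hybridised to Agilent single-colour (Cy3) arrays. The deposited scanner files hold intensity values with background subtracted, made by the authors with Feature Extraction (version 10.7.3.1 in the file headers). The authors' combined deposit held equal intensity for the 62976 spots of every array (relative tolerance 1e-06). RefSeq accessions gave a symbol to 17328 probes and none to 13039. The array design rests on an older rat build, so probes have no coordinates here.

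Outlier spots were dropped, log2 processed signals were lowered by the 75th percentile of the array, and spots of a probe were averaged. Tested probes were measured on all 12 arrays and, in at least 1 group, marked well above background on every array (for 0.5 or more of the spots), which left 21469. A limma 3.58.1 model (R 4.3.3, data.table version 1.17.8) of 4 group means left 8 residual degrees of freedom. Tests were two-sided, adjusted by Benjamini-Hochberg over all tested probes, with a threshold of 0.05, and the code was tested on simulated data. The design text assigns 3 animals to each group, and the number of arrays limits precision.

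Members and gene lists were chosen with earlier results of these data known. Every member probe is described, with list genes that passed or else at most 2 of the smallest p per list and comparison, and the 3 genes most like each member. A few list genes are not reported here. Dlg4 lies outside this rule and was chosen after its value was seen. In the list of 8 oligodendrocyte markers the median was -0.18 with zonisamide added to L-DOPA and 0.22 with L-DOPA against lesioned saline.

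For zonisamide against L-DOPA equal replicate numbers shared a slide, and deviations of same-numbered arrays correlated at 0.37, 0.19 and 0.25, so the numbers pair all arrays there. In the other comparisons only some of the equal numbers shared a slide. Alternatives were other normalizations, filters and probe rules, fits of the compared groups only, replicate and slide blocks, a Ttr covariate, single spots, and leaving out arrays.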

Additional observations from a re-analysis of the deposited data

How the results depend on the processing

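No member probe passed at an adjusted p under 0.05 under any of the alternatives tried, which gave 726 values for the 36 log2 differences of the member probes (0 called with limma). The sign held in all alternatives for 12 of these differences and turned in at least 1 for the other 24, in 76 values, none of which was called. For Grin2a with L-DOPA against lesioned saline the alternatives gave 0.48 to 0.80, with an unadjusted p under 0.05 in 18 of 21, the exceptions being normexp with quantile normalization (0.73), slide as a fixed block (0.52) and the second spot alone (0.65). For Grin2a with zonisamide added they gave -0.69 to -0.30, with p under 0.05 in 13 of 21, and for Grin1 A_43_P11774 0.46 to 0.71, in 16 of 19. That Grin1 probe is printed as 1 spot, so the single-spot and linear-mean settings could only return its reported difference of 0.58. The filters, the fits of the compared groups only and the replicate block also returned the reported differences for Grin2a and this Grin1 probe. So did the probe rules for Grin2a and, with zonisamide added, the slide blocks for both probes. Such settings could move only the p, so these counts are not counts of independent checks. With the replicate block and zonisamide added, Grin2a was at -0.51 (adjusted p = 0.455) and Grin1 A_43_P11774 at 0.58 (adjusted p = 0.265, limma). The replicate block changed no call at the adjusted threshold, while Grin2a no longer had an unadjusted p under 0.05. With slide as a fixed or random block Grin2a kept an unadjusted p under 0.05 (0.0357 and 0.0327, limma). Alternatives with single spots or the linear mean of spots were chosen after seeing the data. Over all probes the number called ran from 0 to 207 for L-DOPA against lesioned saline (92 as reported), from 0 to 255 for zonisamide added (108), from 0 to 372 for L-DOPA against non-lesioned saline (245), and from 0 to at most 13 in the other comparisons; the cause was not tested. For Grin1 A_64_P085896 with zonisamide added, the first spot alone gave -0.64 and the second 0.16. With 3 arrays per group the precision is limited, most of all for Grin2d, whose interval for the lesion ran from -1.48 to 3.82. Leaving out arrays with a replicate-spot spread over 20% gave no value against non-lesioned saline, whose 3 arrays all exceed it.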
